A study of Drosophila melanogaster with 2 samples.

Results

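The 7 genes described here are brat, mira, insc, dpn, nerfin-1, numb and pros. These genes are linked to the asymmetric division of neuroblasts, the neural stem cells of the fly, or to the cell fates that follow it. They were taken from a list of names, of 13945 protein-coding genes on the main chromosome arms, and each was examined with 5 kb on either side. The data are peaks of chromatin bound by CG12605, a zinc finger protein related to Snail and Scratch, fused to eGFP and precipitated with an antibody against GFP. Both libraries, replicates 1 and 2, came from whole pupae of the strain CG12605-GFP at an age of 1 day, and there is no other condition. The labels name an insertion that targets CG12605, but do not say whether the tagged gene is an added copy, and sex was not recorded. Whole pupae mix many tissues, so these peaks cannot be assigned to neuroblasts or to any other cell.

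When a neuroblast divides, the Par proteins gather at its apical side and Inscuteable, the product of insc, ties them to the machinery that orients the spindle. Miranda, from mira, is an adaptor that carries the cell fate determinants Prospero and Brat to the basal side, and Numb, an inhibitor of Notch signalling, also gathers there. The daughter that inherits these proteins stops self-renewal, whereas the neuroblast keeps dividing and expresses Deadpan, the product of dpn. Nerfin-1 is a zinc finger factor that keeps young neurons from returning to a stem cell state.

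Of the 7 genes, 5 held at least 1 summit of the conservative peak list, which was derived from both replicates and thresholded on how well a peak's rank repeats, against 49.8% of all protein-coding genes. They were brat with 11 summits, numb with 3, insc with 2, and dpn and pros with 1 each. Neither mira nor nerfin-1 held any. brat alone had 61.1% of the 18 summits. All 18 lay inside the members' own transcribed spans and 0 in the flanks, and 17 of the 18 lay in introns of the member itself. Around 1 of these, at brat, the sequence is untranslated exon of the overlapping gene Polr1D. A summit is the position of a peak's highest point, and its signal is the authors' value, which has no stated scale and serves to rank peaks within a list.

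The peak sequences below are those of the 4 brat peaks with the highest signals, of the strongest numb peak and of the window at the only conservative pros summit. They are shown because these peaks carry the highest signals of the 3 determinant genes. They are read from the RefSeq Release 6 assembly on its plus strand, which runs in the direction of transcription of all 3 genes. Capitals mark TATAAA and GAGAG, or GAGAG's reverse complement CTCTC; the E-boxes CACCTG and CAACAGGTG were also searched on both strands and are in none of these sequences.

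brat strongest peak, chr2L:19156037-19156276, signal 437: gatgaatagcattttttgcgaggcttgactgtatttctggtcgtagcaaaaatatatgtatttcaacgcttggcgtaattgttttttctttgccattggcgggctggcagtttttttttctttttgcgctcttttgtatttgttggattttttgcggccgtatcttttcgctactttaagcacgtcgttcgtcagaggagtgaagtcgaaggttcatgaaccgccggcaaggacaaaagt

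brat next peak, chr2L:19165040-19165268, signal 347: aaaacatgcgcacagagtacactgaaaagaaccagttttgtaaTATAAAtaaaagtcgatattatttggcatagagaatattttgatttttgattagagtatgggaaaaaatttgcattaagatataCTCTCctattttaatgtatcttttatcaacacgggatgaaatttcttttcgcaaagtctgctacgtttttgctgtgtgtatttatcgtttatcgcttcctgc

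brat neighbouring peak, chr2L:19165274-19165455, signal 143: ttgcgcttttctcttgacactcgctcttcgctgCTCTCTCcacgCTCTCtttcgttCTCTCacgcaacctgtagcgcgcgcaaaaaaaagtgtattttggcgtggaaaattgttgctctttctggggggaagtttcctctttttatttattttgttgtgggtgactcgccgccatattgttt

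brat intron peak, chr2L:19161500-19161622, signal 186: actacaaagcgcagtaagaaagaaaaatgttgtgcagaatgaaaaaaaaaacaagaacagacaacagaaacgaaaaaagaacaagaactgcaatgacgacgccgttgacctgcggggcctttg

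numb strongest peak, chr2L:9449494-9449679, signal 195: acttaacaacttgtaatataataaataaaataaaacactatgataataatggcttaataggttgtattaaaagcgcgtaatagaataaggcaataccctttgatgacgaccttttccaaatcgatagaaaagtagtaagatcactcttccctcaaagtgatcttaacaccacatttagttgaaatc

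pros peak, chr3R:11338427-11338527, signal 91.0: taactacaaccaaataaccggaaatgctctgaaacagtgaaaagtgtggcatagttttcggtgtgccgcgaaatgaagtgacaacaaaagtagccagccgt

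The strongest brat peak has its summit at base 120 of its 240 bases, and its longest run of a single base is 9 T. The next peak holds 31.0% GC and both a TATAAA and a CTCTC, and its neighbour holds CTCTC in several places. The numb peak is also poor in GC, at 30.1%, with an unbroken stretch of 22 A and T bases. The window at the pros summit, at 43.6% GC, has none of the 4 motifs.

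brat encodes a translational repressor of the TRIM-NHL family that promotes differentiation in the smaller daughter. The gene (FBgn0010300, plus strand) runs from 19133816 to 19179758 on 2L in dm6 and has 3 annotated start sites, at 19133816, 19158540 and 19165867. Its 11 conservative summits were all in its introns, on either side of an annotated copy of the transposable element 297 that spans 6978 bp. The 5 summits upstream of the element covered 9299 bp and had signals between 54.8 and 91.0. The 6 downstream of it covered 10138 bp around the later start sites and had signals between 61.7 and 437. The gap between summits across the element was 10874 bp, and the widest gap elsewhere was 4174 bp. As the element itself makes up most of the former, the spacing does not set 2 clusters apart. The last 14390 bp of the gene held no conservative summit.

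**Figure D1:**
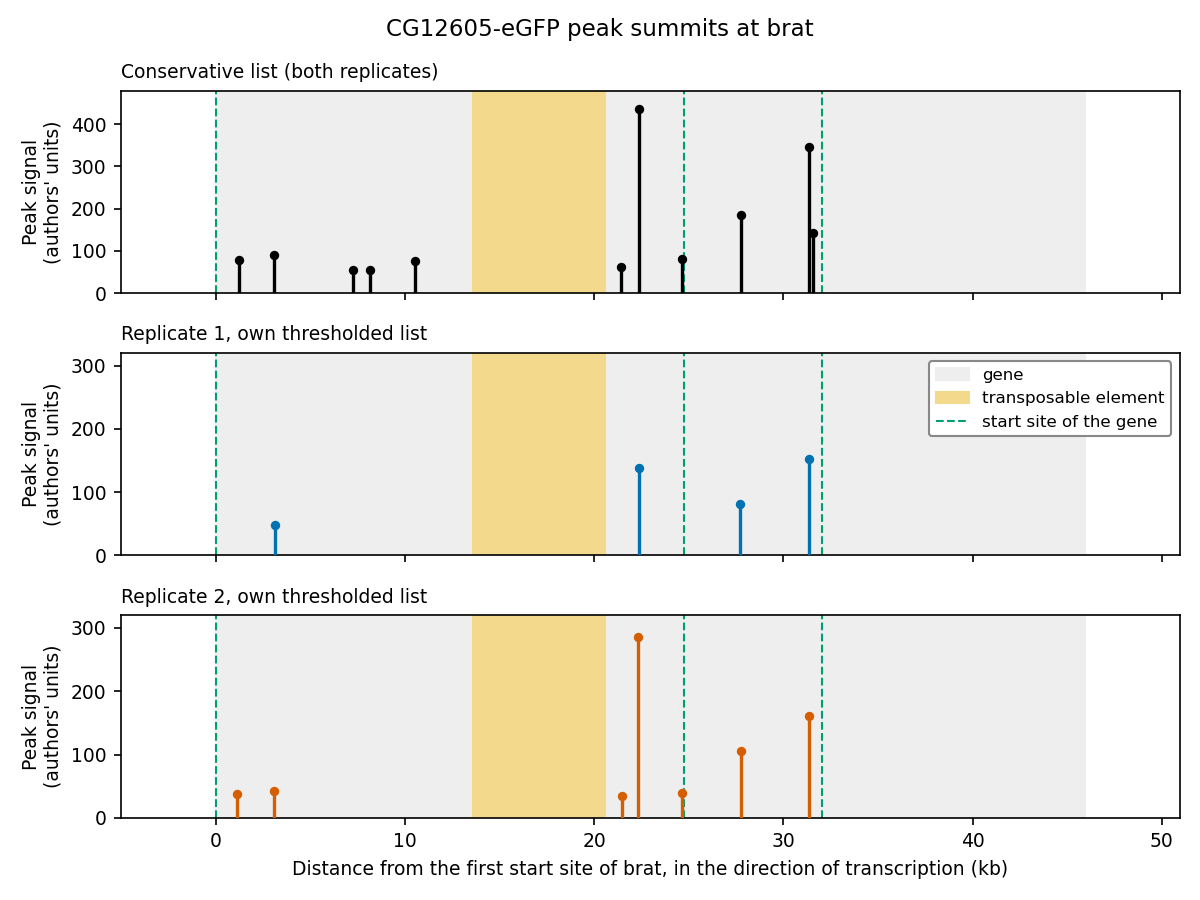
Peak summits at brat by distance from its first start site in kb, with the signal in the authors' units, in the conservative list (black), the thresholded list of replicate 1 (blue) and that of replicate 2 (orange). Grey marks the gene, yellow the transposable element and dashed lines the 3 start sites; the 11 conservative summits lie on either side of the element, and the highest, at 437, lies 2384 bp upstream of the middle start site.

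The strongest brat summit, at 19156156, had a signal of 437 and ranked 150 of 6776 conservative peaks. It lay 2384 bp upstream of the middle start site. Its signal was 138 in replicate 1 and 285 in replicate 2, each in its own list. The next summit, at 19165160, had a conservative signal of 347, rank 253, and lay 707 bp upstream of the last start site. It had 152 in replicate 1 and 161 in replicate 2. The order of these peaks therefore differed between the replicates: the summit upstream of the last start site was the higher in replicate 1, and the one upstream of the middle start site in replicate 2.

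Another brat peak, at 19161573, stood in an intron 3033 bp downstream of the middle start site with a conservative signal of 186 (82.0 in replicate 1 and 106 in replicate 2). The peak at 19165368 had a conservative signal of 143, and its summit lay 208 bp from that of the peak of 347. Its signals were 30.8 in replicate 1 and 48.0 in replicate 2, and it was in neither replicate's thresholded list. At the middle start site itself, a summit 72 bp upstream had 81.4, with 48.7 in replicate 1 and 39.8 in replicate 2. That position also lies in the antisense noncoding gene lncRNA:CR44977, so the peak cannot be given to brat alone.

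The 5 brat summits upstream of the element had signals of at most 91.0. The one nearest to a start site, at 19135057 with 78.8, lay 1241 bp from the first start site of brat. It was only 176 bp downstream of the start of Polr1D, an RNA polymerase subunit gene on the opposite strand. The strongest of the 5, at 19136899 with 91.0, had 48.7 in replicate 1 and 42.7 in replicate 2. It was in both thresholded lists, and lay 1666 bp from the start of Polr1D and 3083 bp from the nearest start of brat. At all 5 the nearest protein-coding start site was that of Polr1D, up to 9123 bp away, so these summits cannot be given to brat alone. Of the 11 brat summits, 4 were in the thresholded lists of both replicates, 3 were in that of replicate 2 alone, and those at 19141073, 19141972, 19144356 and 19165368 were in neither.

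numb encodes the Notch inhibitor that also separates the fates of daughter cells in sensory organs. The gene (FBgn0002973, 2L, 9437469 to 9464184, plus strand) has start sites at 9437469 and 9449830. Its strongest summit, at 9449580, lay 250 bp upstream of the inner start site, inside an intron of the longer transcript. Its conservative signal was 195, rank 797, with 92.3 in replicate 1 and 95.9 in replicate 2. Both replicates kept it in their thresholded lists, at ranks 748 of 4022 and 969 of 5394.

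The other numb peaks were weak. The summit at 9449789, 41 bp upstream of the same start site, had 21.1, rank 6524, and its peak overlaps that of 195. Neither replicate had a summit within 100 bp of it. The summit at 9459573, in an intron 9743 bp downstream of the inner start site, had 43.7 in the conservative list, 29.1 in replicate 1 and 27.0 in replicate 2, and was in neither thresholded list. In the 36.7 kb examined, numb thus had 1 peak that both replicates held at their own threshold.

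pros encodes the homeodomain factor Prospero, which enters the nucleus of the differentiating daughter. It is the longest of the 7 genes (FBgn0004595, 3R, 11328480 to 11407627, plus strand) and had 1 conservative summit, or 0.112 per 10 kb. That summit, at 11338477, lay in an intron 3497 bp downstream of the nearest start site. It had 28.0 in replicate 1 and 68.4 in replicate 2, with 91.0 in the conservative list, rank 3056. Only replicate 2 had it in its thresholded list.

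Each replicate kept other peaks in the pros window that the conservative list does not hold. Replicate 1 had a summit at 11353187 with 44.6, which lies in a pros intron 56 bp upstream of a start site shared by the nested kinase genes KP78a and KP78b. In replicate 2 the nearest ranked summit to it, at 11353015, did not meet the threshold. The other series-level thresholded list, which draws on both replicates, held a summit at 11353081 with 52.4, 50 bp downstream of the same start site. Replicate 2 had a summit at 11372767 with 32.6, in a coding exon of the longer pros transcripts and 21 bp upstream of the start site at 11372788, where replicate 1 had only a ranked summit. Replicate 2 also had a summit at 11409964 with 65.6, beyond the end of pros and 83 bp upstream of Irbp, and 0 of the other 3 ranked lists held any summit there. Whether the difference at Irbp lies in the animals or in the libraries was not tested.

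insc encodes the adaptor Inscuteable, which links the apical Par proteins to spindle orientation. The gene (FBgn0011674, 2R, 20821262 to 20836028, minus strand) overlaps sktl, which encodes a phosphatidylinositol phosphate kinase, and shares its start site at 20836028. The weaker of its 2 conservative summits, at 20836000, lay in an untranslated exon 28 bp downstream of this shared start, with 52.7 in the conservative list, 28.4 in replicate 1 and 32.8 in replicate 2. The stronger, at 20832545 with 91.5, lay in an intron of insc but 127 bp upstream of an inner start site of sktl. It had 30.8 in replicate 1 and 59.7 in replicate 2. Neither summit can be assigned to insc rather than to sktl.

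mira lay in a stretch without repeatable peaks. The gene (FBgn0021776, 3R, 19931799 to 19935120, minus strand) is nested within Hs6st, a heparan sulfate sulfotransferase gene on the same strand. Its window of 13.3 kb held 0 summits in all 4 thresholded lists and in both series-level ranked lists. Of all protein-coding genes, 85.2% had at least 1 summit in the ranked list from which the conservative peaks were taken. Replicate 1 ranked 3 summits there, the highest at 22.6 in a coding exon, and replicate 2 ranked 1, at 11.4, in another place. The conservative summit closest to the gene was 22.6 kb away, upstream of RhoGAP92B, with a signal of 16.5.

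dpn encodes Deadpan, a bHLH repressor that maintains self-renewal. The gene (FBgn0010109, 2R, 8228971 to 8232330, minus strand) had 1 conservative summit, at 8230860 in an intron, 1470 bp downstream of its start site. The noncoding gene sisRNA:4 covers the same position on the same strand. The signal was 68.3, rank 4667, with 32.5 in replicate 1 and 33.1 in replicate 2. These similar values met the threshold in the conservative list, but in neither replicate's own list nor in the other series-level thresholded list.

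nerfin-1 encodes a zinc finger factor of young neurons (FBgn0028999, 3L, 909112 to 912319, plus strand). No summit of the 4 thresholded lists lay within 5 kb. The ranked list of the conservative peaks held 4 summits there, the highest with 34.9 at 907877, and replicate 2 had 18.9 at 907850. Replicate 1 had no summit within 100 bp of either, and its closest to the start site among those upstream, at 908486, had 15.5. The nearest conservative summit, 13.3 kb away, had a signal of 473, rank 132, and lay 157 bp upstream of CG34056.

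**Figure D2:**
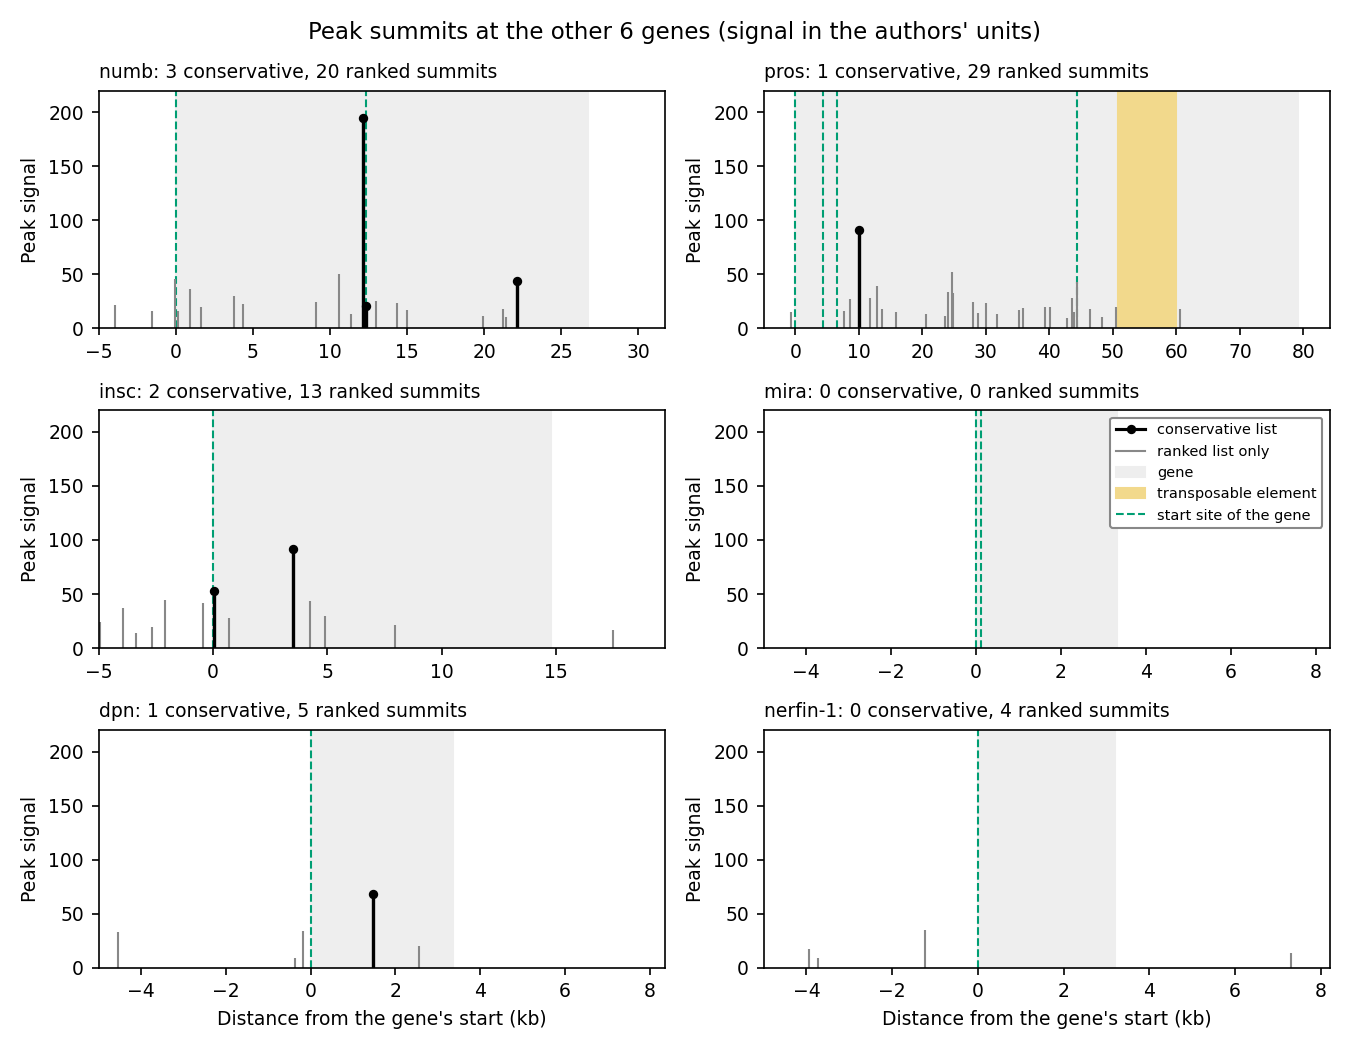
Peak summits at numb, pros, insc, mira, dpn and nerfin-1 by distance from the gene's start in kb, with the signal in the authors' units (black with points for conservative summits, thin grey for other summits of the ranked list). The grey area is the gene, yellow a transposable element and dashed lines start sites; numb reaches 195 at its inner start site, while mira has no summit of either list.

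Most of the 18 summits were found in both replicates, but fewer met each replicate's threshold. Within 100 bp, 17 of the 18 had a summit in both replicates' ranked lists, as did 88.4% of all conservative summits. The conservative list keeps peaks whose rank repeats, so such matches follow largely from how it was made. In the thresholded lists, 5 were held by both replicates, 5 by replicate 2 alone, 0 by replicate 1 alone and 8 by neither. The 5 held by both were those of brat at 437, 347, 186 and 91.0 and that of numb at 195. In replicate 1's own thresholded list 3 of the 7 genes had a summit in their windows, brat, numb and pros, against 38.9% of all genes. In replicate 2's list it was 4 of the 7, with insc added, against 44.5% of all genes. brat had 4 summits in the list of replicate 1 and 7 in that of replicate 2, and numb 1 in each.

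At the 17 summits, the signal in replicate 2 was between 0.818 and 2.45 times that in replicate 1, with a median of 1.13. Over the 5991 conservative summits that could be compared, the median ratio was 1.19, with 5th and 95th percentiles of 0.703 and 2.01. The pros summit, at 2.45, and the strongest brat summit, at 2.07, lay above that range, and 0 member summits lay below it. The read depth of either library and the scaling of the signal are unknown, so such a ratio cannot be read as a difference in binding.

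**Figure D3:**
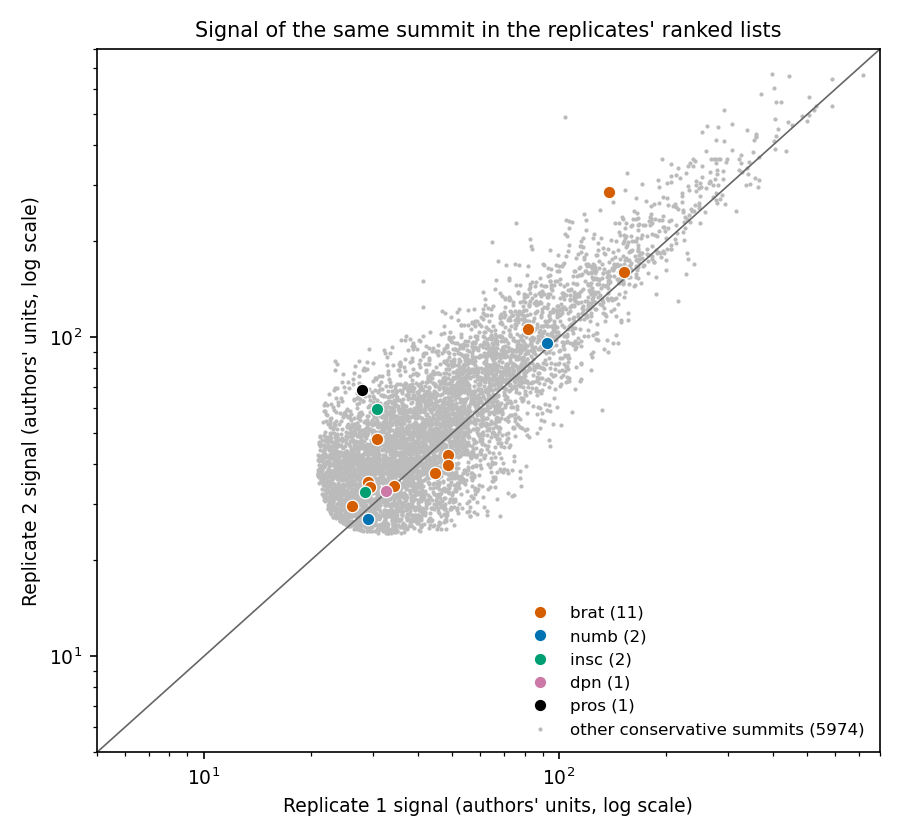
Signal of each conservative summit in replicate 2 against replicate 1, both in the authors' units on log scales, for the 17 member summits (coloured) and the other summits (grey), with a line at equal signal. The strongest brat summit (138 and 285 in replicates 1 and 2) and that of pros (28.0 and 68.4) stand above most others, and the brat summit at 347 (152 and 161) lies near the line.

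The median signal of the 18 was 80.1, against 85.6 over all 6776 peaks, and 8 of the 18 were above the list's median. The 5 with the highest signals, at brat and numb, were also the 5 whose peaks were narrower than 360 bp. The other 13 were all 360 bp wide, as were 76.3% of the list. Over the list, peaks narrower than 360 bp had a median signal of 194, and those of 360 bp a median of 74.4.

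GC content and motifs varied among the member summits. GC over the 50 bp on either side ranged from 24.8% to 57.4% among the 18 summits with a median of 42.1%, where the median of all conservative summits was 36.6%. GAGAG, the site of GAGA factor, was in 5 of the 18 windows (27.8%), against 19.6% of all windows: at brat in 3, at insc in 1 and at numb in 1. TATAAA was in 1, at the brat summit at 19144356 with a signal of 75.0, against 16.8%. The TATAAA in capitals in the printed brat peak of 347 lies outside the window at that summit and is not counted here. CACCTG, a core read by Snail and Scratch proteins, and the longer CAACAGGTG, which contains it on the other strand, were in 0 of the 18 windows, against 3.28% and 0.871% of all windows. With shares this low in the list, 18 windows are too few to set the members apart from it.

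The number of summits in a window depends on its length, and brat stood high in this respect. Of all windows of at most 15 kb, 44.0% held a conservative summit, of those over 15 kb and up to 30 kb 64.8%, and of those over 30 kb 73.1%. dpn, mira and nerfin-1 fall in the first class with 1 of 3 occupied, insc in the middle one with 1 of 1, and brat, numb and pros in the last with 3 of 3. As many as 11 summits were found in 0.437% of genes of any window length, or 61 of 13945, brat included. The median window of all genes was 12.2 kb, against 55.9 kb for brat. Per 10 kb, brat had 1.97 conservative summits, and among 359 other genes with windows at least as long 14 had more. Over windows of any length, 1082 genes (7.76%) had a higher value per 10 kb than brat. numb had 0.817, insc 0.808 and dpn 0.749 per 10 kb. For pros, 87 of 136 other genes with windows at least as long had a higher value than its 0.112.

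**Figure D4:**
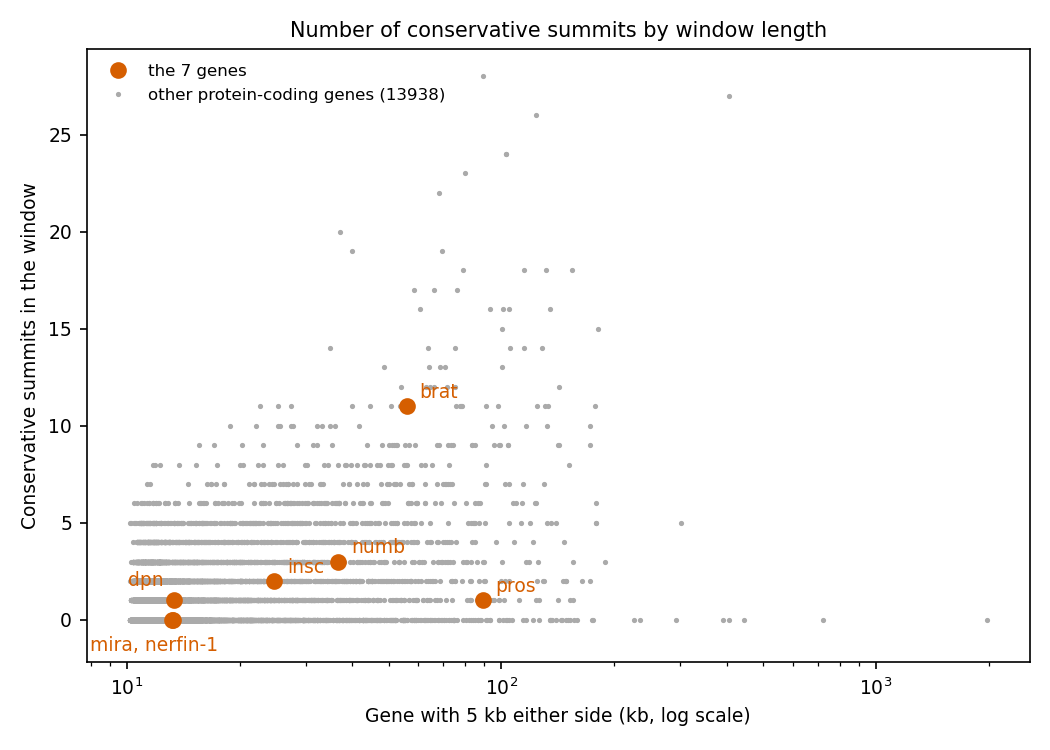
Number of conservative summits in each gene with 5 kb on either side, against the length of that window in kb on a log scale, for the 7 genes (orange, named) and all other protein-coding genes (grey). brat has 11 summits in 55.9 kb, pros 1 in 89.1 kb, and mira and nerfin-1 lie together at 0.

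Over all 7 windows, 246.5 kb in total, there were 0.730 conservative summits per 10 kb, against 0.506 on the main chromosome arms. Without brat the value was 0.367, from 7 summits in 190.5 kb, so the higher value came from that gene. In the ranked list the 7 windows held 104 summits, or 4.22 per 10 kb, and 3.73 without brat, against 3.51 on the arms.

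Near start sites, 3 of the 7 genes had a conservative summit within 1000 bp of a start site of their own, against 23.1% of all genes. They were brat, insc and numb, with 6 of the 18 summits, and the insc start is the one shared with sktl. At brat and numb these summits lay at inner start sites. The first start sites, 19133816 for brat and 9437469 for numb, had no conservative summit within 1000 bp.

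In the reference annotation, transposable elements interrupt both brat and pros. The peak lists do not show whether the pupae used here carried these copies. The 297 copy in brat and a roo copy of 9097 bp in pros held 0 summits in all 8 lists. Elements of at least 5000 bp were nearly always empty, since 681 of 695 had no summit in the ranked list. That list had 0.127 summits per 10 kb inside annotated elements and 3.73 outside. No source used here says how reads from repeated copies were treated, and its part in these gaps was not tested.

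Other genes of the same process are given beside the share of all genes, 49.8% with a summit within 5 kb and 23.1% with one within 1000 bp of an own start site. Of 18 genes for cortical polarity and the spindle, 12 had a conservative summit within 5 kb (66.7%), and 7 had one within 1000 bp of an own start site. Their median window was 21.0 kb. By window length, 3 of 6 had a summit at most 15 kb, 5 of 8 up to 30 kb and 4 of 4 over 30 kb. Of all genes, 44.0%, 64.8% and 73.1% had one in these classes. The highest were baz, the Par scaffold that Inscuteable binds, with 623 (278 in replicate 1 and 334 in replicate 2), loco, a regulator of G protein signalling, with 416 (191 and 216), and the polarity gene scrib with 342 (183 and 180.3). These summits lay 18715 bp downstream of the nearest start site at baz, 425 bp upstream at loco and 478 bp upstream at scrib. No summit was found at pins or mud, whose products orient the spindle with Inscuteable, nor at l(2)gl, pon, polo or stau. Of the binding partners of Inscuteable, baz thus had 4 summits in a window of 50.7 kb and pins 0 in one of 13.5 kb. These windows fall in the classes where 73.1% and 44.0% of all genes had a summit, so the counts do not compare the 2 genes at like length.

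Of 18 neuroblast transcription factor genes, 7 had a summit (38.9%). By window length, 3 of 11 had one at most 15 kb, 1 of 3 up to 30 kb and 3 of 4 over 30 kb. All genes stood at 44.0%, 64.8% and 73.1% in these classes. Within 1000 bp of an own start site, 3 of the 18 had a summit. The median window was 13.6 kb. The highest were grh, which encodes Grainy head, with 439 (154 in replicate 1 and 290.1 in replicate 2), klu with 435 (181 and 237) and wor, a Snail family gene, with 173 (84.5 and 89.7). From the nearest start site of the gene, the grh summit lay 3162 bp upstream, that of klu 1425 bp upstream and that of wor 2891 bp downstream. ase, sna, tll, erm, cas, D, SoxN, ind, vnd, btd and jumu had 0. Of 13 daughter cell fate and growth genes, 12 had a summit (92.3%), and 7 had one within 1000 bp of an own start site. Their median window was 28.5 kb. In the same length classes, 3 of 4, 3 of 3 and 6 of 6 had a summit. The highest signals were at osa, a chromatin remodeller subunit gene, with 698, pum, whose product works with Brat on target mRNAs, with 401, and Myc with 346. Their summits lay 13960 bp downstream of the nearest start site at osa, 2444 bp upstream at pum and 8770 bp downstream at Myc. Not every strongest summit in these lists was nearest to a start site of the gene itself. No difference between these lists and all genes was tested.

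By the number of summits and the signals of the strongest one in the conservative list and both replicates, the genes most like brat were Eip93F, dnc and CG46385, among 6631 genes compared. Each had 11 conservative summits, a number that was used to choose them. Window length was not used, and it was 75.4 kb at Eip93F, 177.3 kb at dnc and 55.6 kb at CG46385, beside 55.9 kb at brat. Per 10 kb the values were 1.46, 0.620 and 1.98 in that order, beside 1.97 at brat. Their strongest signals were 495 at Eip93F, an ecdysone-induced factor, 359 at dnc, a cAMP phosphodiesterase gene, and 395 at CG46385, beside 437 at brat. At their strongest summits replicate 1 gave 191 at Eip93F, 145 at dnc and 182 at CG46385, all above the 138 at brat. Replicate 2 gave 296 at Eip93F and 211 at CG46385, beside 285 at brat, and dnc was also below brat.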

How the data were processed

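Chromatin from whole pupae was precipitated with an anti-GFP antibody in 2 biological replicates of 1 group. The deposited peak lists hold a signal value and an integer score per peak on dm6; per the text deposited with each sample, peaks were called against a control alignment and ranked by the irreproducible discovery rate (IDR). The aligner and peak caller: not given in the sources used here. The score deposited by the authors reflects the IDR (125 times the log2 of 1/IDR, capped at 1000) and is at least 830, or an IDR of 0.01, in the conservative list. That list of 6776 peaks is the main one, matched to the ranked list of 47103 that holds all its peaks; the thresholded lists of replicates 1 and 2 hold 4022 and 5394 peaks, and their ranked lists 41147 and 46268. Series-level lists pool both replicates and have no error. The control, reads and coverage were not analysed here, so depth is unknown.

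Summits (counted from 1) were placed on Ensembl 115 genes; all 7 members have the same place in RefSeq. Ranks follow signal. A replicate's summit was matched within 100 bp. Motifs were searched in the 50 bp on either side of the summit. No test was made: 1 group has no contrast, so members are given beside the same counts over all protein-coding genes. The members, lists and tests were chosen with earlier results of these data known. Named genes are the members, those with the start site nearest to a summit, the 3 of each related list with the highest signal, and the 3 most like brat, by distance over 4 scaled values; genes at 0 are named as well. Of the related genes, 3 (Dl, nos and L(2)dtl) were matched by hand to Delta, nanos and l(2)dtl in the annotation, after the values of the others were seen. Counting was checked on simulated summits. Python 3.11.15, numpy 2.4.6 and pandas 2.3.3 were used.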

Additional observations from a re-analysis of the deposited data

How the results depend on the processing

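The number of members with a conservative summit stayed at 5 with 0, 1000, 2000 or 10000 bp on either side and with whole peaks, and was 4 in the other series-level thresholded list and among conservative peaks at or above the median signal. In the replicates' own lists it ranged from 3 to 4, and the number of summits from 6 to 13, against 18. The peaks at or above the median signal held 8 of the 18. The share of all protein-coding genes with a summit was 15.7%, 29.5%, 35.6% and 65.3% with 0, 1000, 2000 and 10000 bp, 34.9% for peaks at or above the median signal, and from 38.9% to 44.5% in a single replicate, so the members' count must be read against the share of its own setting. dpn had 0 summits in the other series-level list, among peaks at or above the median signal and in either replicate, and insc 0 in replicate 1. mira and nerfin-1 had 0 under each of these settings. Members with a summit near a start site ranged from 2 to 3 in a single replicate and were 4 at 2000 bp. Of the 18 windows, 6 held any of the 4 motifs, and 10 did with 100 bp on either side and 11 over whole peaks, which hold more sequence; GAGAG was in 9 and 10 of these. Summits matched in both replicates were 13 at 50 bp and 18 at 200 bp, limits chosen after seeing the data. No paired analysis was possible because there is 1 group. Unknown depth limits any reading of absence: a gene without a listed peak may be bound below the authors' threshold.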
